A study of Homo sapiens with 6 samples.

Results

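The BCL2 family genes of the liver cancer cell line HepG2 were followed in control cells and in cells overexpressing APPLE, a microprotein encoded by the long noncoding RNA ASH1L-AS1. The members were 10 genes chosen by symbol, and each of the 10 was found among the 20422 genes of the count table. They are the anti-apoptotic genes MCL1, BCL2, BCL2L1 and BCL2L2, the effector gene BAK1, and the BH3-only genes BID, BAD, BIK, BMF and BCL2L11. The question put to the 6 RNA-Seq libraries was which transcripts change when APPLE is overexpressed. The NC group held 3 libraries of HepG2 cells carrying an empty vector, and the ORF-Flag group held 3 libraries of HepG2 cells carrying the open reading frame of APPLE joined to a Flag tag, in a construct that per the study's methods also holds the 5′-UTR of ASH1L-AS1. Per the labels the constructs were plasmids brought in by transfection, while the study's methods describe stable lines made with lentiviral vectors and kept after puromycin selection, so the delivery is given here in both forms. ASH1L-AS1 itself was not analysed here. Whether the 3 libraries of a group came from separate cultures is not stated, and p-values therefore measure the spread between these libraries, which may be technical. In order of replicate, the ORF-Flag libraries held 26866148, 17494668 and 27015836 counts, and those of NC held 20081203, 24907524 and 30088457.

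BCL2 family proteins decide whether the outer mitochondrial membrane stays intact. The effectors BAK and BAX can assemble into pores that release cytochrome c, the anti-apoptotic proteins hold effectors and BH3-only proteins in check, and the BH3-only proteins carry death signals to the other classes. In the liver, MCL1 and BCL-xL, the long product of BCL2L1, are known to keep hepatocytes alive, and BID links death receptors at the cell surface to the mitochondria. Much of the control of this family acts on the proteins, through cleavage, phosphorylation and degradation, which counts of RNA do not measure.

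What joins the 3 classes is the BH3 segment, a short helix that fits the groove of an anti-apoptotic protein. Its coding bases are shown because this segment is common to all 3 classes. Windows of 36 bases were read from GENCODE release 29 transcripts on GRCh38, 5′ to 3′ on the coding strand, and the capitals mark the 6 codons that run from the leucine (methionine in BCL2L2) to the aspartate of the core. For the anti-apoptotic genes and the effector the bases are as follows.
MCL1: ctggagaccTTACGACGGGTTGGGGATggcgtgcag
BCL2: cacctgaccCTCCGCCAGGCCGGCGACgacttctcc
BCL2L1: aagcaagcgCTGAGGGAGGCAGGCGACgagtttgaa
BCL2L2: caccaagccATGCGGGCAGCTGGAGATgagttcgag
BAK1: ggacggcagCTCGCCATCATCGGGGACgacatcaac

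For the BH3-only genes, in which this segment is the part of the protein shared with the rest of the family, the bases are as follows.
BID: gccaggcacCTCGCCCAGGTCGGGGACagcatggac
BAD: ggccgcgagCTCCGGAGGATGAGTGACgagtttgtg
BIK: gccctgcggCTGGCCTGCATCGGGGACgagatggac
BMF: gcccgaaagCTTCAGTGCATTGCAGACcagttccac
BCL2L11: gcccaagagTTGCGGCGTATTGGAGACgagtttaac

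Each window lies within 1 coding exon. On the minus strand are those of MCL1 at chr1:150578868-150578903, BCL2 at chr18:63318352-63318387, BCL2L1 at chr20:31721925-31721960, BAK1 at chr6:33575390-33575425, BID at chr22:17739418-17739453, BAD at chr11:64271625-64271660 and BMF at chr15:40104198-40104233. On the plus strand are those of BCL2L2 at chr14:23307894-23307929, BIK at chr22:43127707-43127742 and BCL2L11 at chr2:111150094-111150129. Codons for leucine, any 3 residues, glycine and aspartate in a row were found once in the reading frame of 7 of the 10 members. BCL2L2, BAD and BMF held only a looser form, with leucine or methionine first and glycine, alanine or serine before the aspartate. The strict form is also present in 13.7% and the looser form in 39.9% of the 19750 protein-coding genes searched, so a match describes these letters and does not by itself mark a BH3 segment.

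The labelled cell type was checked against marker genes. The 10 hepatocyte markers summed to between 27259.7 and 28545 CPM (read counts scaled to library size with TMM factors) in the 6 libraries. APOB, the structural protein of low-density lipoprotein, was at between 7311 and 8152 CPM and was the most abundant of them in each library but ORF-Flag replicate 1, where ALB was at 7586 CPM. TTR, which encodes the carrier protein transthyretin, was counted at between 5.63 and 6.66 CPM. No other gene shares exon bases with TTR in GENCODE release 29, but the annotation used for the counting is not given in the sources used here, so whether its reads were all counted is not known. Fibroblast markers summed to at most 1 CPM, with PDGFRB the most abundant and DCN at 0 counts in each library. Blood cell markers summed to between 37.3 and 42.8 CPM, nearly all from the lysosomal gene CD68, with PTPRC and CD3E at 0 counts in each library. Endothelial markers summed to between 4.16 and 5.01 CPM in NC and between 5.52 and 6.55 CPM in ORF-Flag, with PECAM1 the most abundant and KDR at 0 counts in each library.

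BCL2L1 was the most abundant member on a length-scaled level, which is counts per kilobase of merged exon, brought to the same total in each library as TPM values are. Its mean over the 6 libraries was 244, with a range of 237 to 253. MCL1 was next, with a mean level of 87.3 and a range of 81.9 to 95. These genes encode the survival proteins that hepatocytes are known to depend on, and no library of MCL1 reached the level of BCL2L1 in any library.

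BIK, a BH3-only protein of the endoplasmic reticulum, had the highest length-scaled level of its class, with a mean of 43.4. BAD, BAK1 and BID followed with mean levels of 24.3, 22.3 and 20.3. Their ranges ran from 22.5 to 27.1 for BAD, from 21.0 to 24.8 for BAK1 and from 19.0 to 22.4 for BID, so neither BAD and BAK1 nor BAK1 and BID were separated by the spread between libraries. BCL2L2 stood below them with a mean level of 11.8. The lowest members were BCL2L11 at 2.50, BMF at 1.09 and BCL2 at 0.292. The gene that gives the family its name was thus the least abundant of the 10 in these cells, at a level between 0.229 and 0.348.

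Of the 9 pairs of neighbours in this order, 7 did not overlap over the 6 libraries. With the length of the longest transcript in place of merged exons, 8 pairs did not overlap, and BID, at a mean level of 28.0, stood above BAD at 27.7 and BAK1 at 17.3. Levels between genes also depend on how reads from shared exons were counted. Exons of ABALON, an antisense transcript, cover 43.0% of the exon bases of BCL2L1, and those of GPR137 on the opposite strand cover 23.7% of BAD. On the same strand, the readthrough gene BCL2L2-PABPN1 shares 19.4% of the exon bases of BCL2L2. The use of strand in the counting is not given in the sources used here, so reads from these bases cannot be told apart by gene. ABALON is not among the genes of the count table, while GPR137 and BCL2L2-PABPN1 are.

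**Figure D1:**
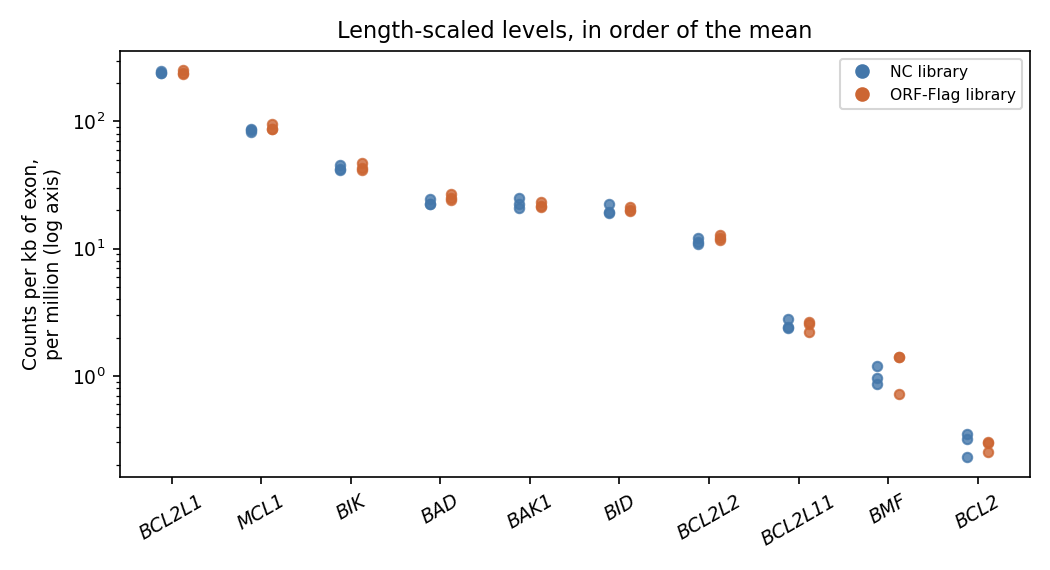
Length-scaled level of each member (counts per kilobase of merged exon at the same total per library, log axis) in each of the 6 libraries, with NC in blue and ORF-Flag in orange, genes in order of their mean. BCL2L1 lies between 237 and 253 in the 6 libraries, MCL1 between 81.9 and 95, and BCL2 between 0.229 and 0.348.

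BCL2L1 made up between 70.3% and 71.8% of the summed length-scaled level of the 4 anti-apoptotic genes, and MCL1 between 24.5% and 26.4%. BCL2L2 accounted for between 3.12% and 3.71%, and BCL2 for between 0.0682% and 0.0997%. The summed level of the anti-apoptotic genes was 3.61, 4.02 and 3.71 times that of the 5 BH3-only genes in NC, and 3.94, 3.78 and 3.43 times in ORF-Flag. The groups overlapped in this ratio, with means of 3.78 ± 0.214 in NC and 3.72 ± 0.261 in ORF-Flag (SD, n = 3). The ratio of MCL1 to BCL2L1 was 0.357, 0.348 and 0.341 in NC and 0.375, 0.363 and 0.365 in ORF-Flag. Each ORF-Flag library was above each NC library in it, but this ratio was chosen after its values were seen and is given with no test.

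Among the 10 members, 0 passed an adjusted p of 0.05 between ORF-Flag and NC in edgeR's quasi-likelihood test with Benjamini-Hochberg adjustment over all 12386 genes tested. Of all genes tested, 4.45% (551) passed, 2.47% higher in ORF-Flag and 1.98% lower. Limma-trend and limma-voom also called 0 of the 10, and DESeq2 called 0 of the 8 for which it gave an adjusted p, leaving out BCL2 and BMF. At an unadjusted p below 0.05, edgeR took 1 member, MCL1, beside 18.5% of all genes tested, and each of the other tools took MCL1 alone. With a library left out, edgeR's count at this unadjusted threshold was 2 without NC replicate 1 (MCL1 and BAD), 3 without ORF-Flag replicate 2 (MCL1, BAD and BMF), and 0 without NC replicate 3 or ORF-Flag replicate 1. A fold change above 1.2 with an unadjusted p below 0.05 was met by 0 members and by 4.54% of all genes tested.

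In CPM the groups did not overlap for 2 members, MCL1 and BAD, each higher in ORF-Flag. Of all genes tested, 11.5% were higher without overlap and 22.4% were without overlap in either direction. On the length-scaled level the groups overlapped for both members. There MCL1 was at 87.2 in NC replicate 2 and 86.8 in ORF-Flag replicate 3. BAD was at 24.5 in NC replicate 1 and 24.1 in ORF-Flag replicate 2. The log2 fold change was above 0 for 7 members and below 0 for 3. The median of the 10 was 0.03 and the median of their absolute values 0.07, against 0.00 and 0.07 over all genes tested. Beside these shares, counts of 0 to 2 among 10 members give no result about the family. All 10 members passed the filter on low counts.

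The count over all genes depended on single libraries. It was 551 with 6 libraries, 267 without NC replicate 2, 1058 without NC replicate 3, and 300, 278 and 199 without ORF-Flag replicates 1, 2 and 3. The count of members called was 0 in each of these 5 fits and also without NC replicate 1.

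**Figure D2:**
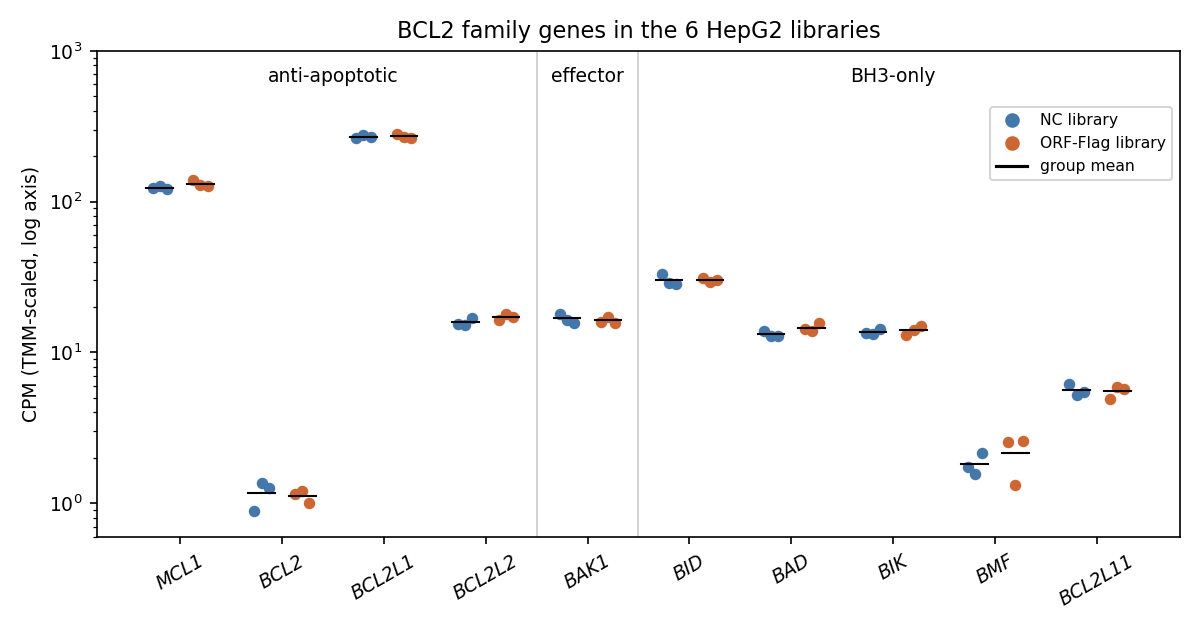
CPM of each member (TMM-scaled, log axis) in each library, NC in blue and ORF-Flag in orange, with a line at the mean of each group, and genes ordered by class. The groups do not overlap for MCL1 and BAD, and for the other 8 members they do.

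MCL1, a short-lived guardian that binds BAK and BH3-only proteins, was measured at 123, 127 and 120.3 CPM in NC and at 138, 129 and 127 CPM in ORF-Flag. Each ORF-Flag library was above each NC library in CPM, the closest being ORF-Flag replicate 3 and NC replicate 2, both at 127 when rounded. ORF-Flag replicate 1 was the highest of the 6. On the length-scaled level the groups overlapped. The means were 123 ± 3.27 CPM in NC and 131 ± 5.58 CPM in ORF-Flag (SD, n = 3). ORF-Flag differed from NC by a log2 fold change of 0.09 with a standard error of 0.04 and a 95% interval of 0.01 to 0.17, which is a fold of 1.07 (1.01 to 1.13). Its adjusted p was 0.20 in edgeR's quasi-likelihood test. In bulk samples of this kind a change in the share of cells that hold a transcript and a change in RNA per cell cannot be told apart. Gene counts also do not separate the long and short splice forms of MCL1 and BCL2L1, which are known for opposite actions.

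MCL1's difference rested in part on single libraries. Its log2 fold change was between 0.06 and 0.12 over 14 alternatives, and MCL1 was no longer below an unadjusted p of 0.05 without NC replicate 3 or without ORF-Flag replicate 1. Its adjusted p was between 0.14 and 0.60 over the same alternatives.

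BCL2L1 stood at 262, 276 and 267 CPM in NC and at 279, 270.1 and 264 CPM in ORF-Flag. NC replicate 1 was the lowest and ORF-Flag replicate 1 the highest, and the groups overlapped. Their means were 268 ± 7.27 CPM in NC and 271 ± 7.23 CPM in ORF-Flag (SD, n = 3). Between the groups the log2 fold change was 0.01, with a 95% interval of -0.06 to 0.08 and an adjusted p of 0.89 in edgeR's test. It was 0.00 without NC replicate 1 and -0.01 without ORF-Flag replicate 1, so no direction can be given. The interval of the fold, 0.961 to 1.06, is the narrowest of the 10 members.

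BCL2L2, which encodes the survival protein BCL-w, had 15.5, 15.2 and 17.0 CPM in NC and 16.3, 17.9 and 17.2 CPM in ORF-Flag. NC replicate 3 lay above ORF-Flag replicate 1, so the groups overlapped, although all 3 ORF-Flag libraries were above the NC mean of 15.9 CPM. The difference was 0.10 on the log2 scale (95% interval -0.05 to 0.25) with an adjusted p of 0.52 in edgeR's test. It ran from 0.07 to 0.16 with each library left out in turn, and was highest without NC replicate 3. The readthrough gene that shares its exons, BCL2L2-PABPN1, had between 29 and 51 counts in the 6 libraries, against between 312 and 509 counts for BCL2L2.

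BCL2, the founding survival gene, was close to the lower end of what these libraries measure. It had 18, 34 and 38 counts in NC and 31, 21 and 27 counts in ORF-Flag, or 0.890, 1.36 and 1.27 CPM against 1.15, 1.21 and 1.0 CPM. NC held both the lowest and the highest library, and the ORF-Flag libraries lay between them. The log2 fold change of -0.10 had a 95% interval of -0.63 to 0.43 and an adjusted p of 0.89 in edgeR's test. Without NC replicate 2 it was 0.01. At this depth any fold between 0.645 and 1.35 stays within the interval for BCL2.

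BAK1, the only effector among the members, was at 18.1, 16.5 and 15.6 CPM in NC and at 15.8, 17.3 and 15.7 CPM in ORF-Flag. NC replicate 1 was the highest and NC replicate 3 the lowest, with all 3 ORF-Flag libraries in between. Between the groups the log2 fold change was -0.04 (95% interval -0.20 to 0.11) with an adjusted p of 0.82 in edgeR's test, and it was 0.01 without NC replicate 1. BAX, the partner effector, was the more abundant of this pair, with a length-scaled level between 172 and 200.3 against between 21.0 and 24.8 for BAK1. The ratio of BAX to BAK1 on that scale was 8.34 ± 0.290 in NC and 8.14 ± 0.490 in ORF-Flag (SD, n = 3), with overlapping groups, and was between 14.6 and 16.5 in the 6 libraries when the longest transcript set the length.

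BID, which caspase 8 cleaves to its active form, had 32.9, 28.8 and 28.4 CPM in NC and 31.3, 29.5 and 30.4 CPM in ORF-Flag. The ORF-Flag libraries lay inside the range of NC, whose replicate 1 was the highest of the 6. BID had a log2 fold change of 0.03 (95% interval -0.10 to 0.16) with an adjusted p of 0.88 in edgeR's test. It was 0.00 without NC replicate 2 and -0.01 without NC replicate 3.

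BAD, a BH3-only protein that survival kinases hold inactive by phosphorylation, had 13.8, 12.8 and 12.9 CPM in NC and 14.3, 13.9 and 15.6 CPM in ORF-Flag. Each ORF-Flag library was above each NC library in CPM, by the least in ORF-Flag replicate 2, which stood just above NC replicate 1. On the length-scaled level the groups overlapped. The means were 13.2 ± 0.560 CPM in NC and 14.6 ± 0.863 CPM in ORF-Flag (SD, n = 3). The log2 fold change was 0.16 with a standard error of 0.08 and a 95% interval of -0.01 to 0.32, or 0.996 to 1.25 as a fold. Its adjusted p was 0.29 in edgeR's quasi-likelihood test, and unadjusted it missed 0.05 with 6 libraries but passed it without NC replicate 1 and without ORF-Flag replicate 2. GPR137, which overlaps BAD on the opposite strand, had a log2 fold change of -0.11 (95% interval -0.31 to 0.09) and an adjusted p of 0.60 in the same test.

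BIK was measured at 13.4, 13.2 and 14.4 CPM in NC and at 13.1, 14.0 and 15.0 CPM in ORF-Flag. The ORF-Flag libraries held both the lowest and the highest value, so the groups overlapped. BIK had a log2 fold change of 0.03 (95% interval -0.13 to 0.20) with an adjusted p of 0.88 in edgeR's test, and -0.02 without ORF-Flag replicate 3.

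BMF, a BH3-only protein tied to the cytoskeleton until it is released, had 35, 39 and 65 counts in NC and 68, 23 and 70 counts in ORF-Flag, or 1.73, 1.56 and 2.17 CPM against 2.53, 1.32 and 2.59 CPM. ORF-Flag replicate 2 was the lowest of the 6 libraries while the other two ORF-Flag libraries were the highest. The log2 fold change of 0.27 was the largest of the 10 members, but its 95% interval ran from -0.20 to 0.74 and its adjusted p was 0.58 in edgeR's test. Over 14 alternatives it lay between 0.13 and 0.48, the highest without ORF-Flag replicate 2, and its adjusted p lay between 0.29 and 0.88.

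BCL2L11, whose product BIM binds every anti-apoptotic member, had 6.13, 5.24 and 5.45 CPM in NC and 4.88, 5.92 and 5.74 CPM in ORF-Flag. NC replicate 1 was the highest and ORF-Flag replicate 1 the lowest, and the other 4 libraries were mixed between them. Between the groups the log2 fold change was -0.03 (95% interval -0.29 to 0.24) with an adjusted p of 0.94 in edgeR's test. It was 0.03 without NC replicate 1 and 0.06 without ORF-Flag replicate 1.

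No library was the highest or the lowest for most members. NC replicate 1 and ORF-Flag replicate 3 were each the highest of the 6 for 3 members, and NC replicate 3 was the lowest for 3. The coefficient of variation was smallest in NC for MCL1, at 2.65%, and in ORF-Flag for BCL2L1, at 2.67%. It was largest for BCL2 in NC, at 21.3%, and for BMF in ORF-Flag, at 33.4%.

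Among the members, the 95% interval was narrower the more counts a gene had over the libraries. This did not extend to every listed gene, since ALB, with 1060994 counts in all, had a half-width of 0.07 on the log2 scale. MCL1 and BCL2L1 had at least 2251 and 4701 counts in each library, and the half-widths of their 95% intervals on the log2 scale were 0.08 and 0.07. For BMF and BCL2 the half-widths were 0.47 and 0.53. The 95% interval of the fold lay wholly between 0.833 and 1.2 for 6 members, namely MCL1, BCL2L1, BCL2L2, BAK1, BID and BIK. For BCL2 the interval passed both limits, for BAD and BMF the upper limit only, and for BCL2L11 (0.817 to 1.18) the lower limit only.

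**Figure D3:**
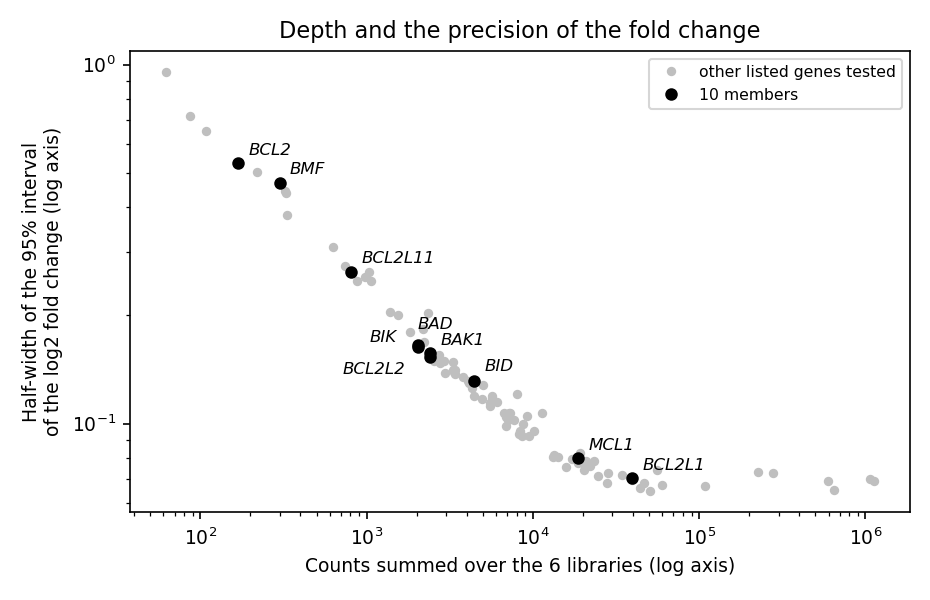
Half-width of the 95% interval of the log2 fold change (log axis) against counts summed over the 6 libraries (log axis), with the 10 members in black and the other listed genes that were tested in grey. The half-width falls from 0.53 for BCL2 to 0.07 for BCL2L1.

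Of 14 further genes of the family, 10 were tested, and 0 passed an adjusted p of 0.05 in edgeR's quasi-likelihood test, in limma-trend or in limma-voom. DESeq2 gave 8 of them an adjusted p, not PMAIP1 or BCL2L14, and called 0. At an unadjusted p below 0.05 edgeR took 4 that were higher and 1 that was lower in ORF-Flag, beside 18.5% of all genes tested in either direction. Their median log2 fold change was 0.15, with 8 above 0 and 2 below, against 0.03 for the 10 members and 0.00 for all genes tested. HRK, BCL2A1, BCL2L10 and BCL2L15 had at most 9 counts in any library and were not tested.

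PMAIP1, which encodes NOXA, a BH3-only protein that binds MCL1, had 2.32, 1.72 and 1.34 CPM in NC and 3.09, 3.16 and 2.26 CPM in ORF-Flag. ORF-Flag replicate 3 lay just below NC replicate 1, so the groups overlapped. PMAIP1 had a log2 fold change of 0.68 with a standard error of 0.21 and a 95% interval of 0.24 to 1.12, with an adjusted p of 0.067 in edgeR's test. The adjusted p passed the threshold without NC replicate 1 (0.025) and with no filter on low counts (0.019), in a range of 0.019 to 0.23 over the alternatives. BOK, an effector-like gene, was at 18.9, 16 and 14.6 CPM in NC and at 13.3, 14.9 and 13.2 CPM in ORF-Flag. Its groups overlapped through NC replicate 3 and ORF-Flag replicate 2. The log2 fold change was -0.26 (95% interval -0.44 to -0.08), with an adjusted p of 0.10 in edgeR's test. This adjusted p was 0.011 without NC replicate 3 and 0.037 with no filter, in a range of 0.011 to 0.35. Without NC replicate 1, the highest library for BOK, the log2 fold change was -0.16 and the adjusted p 0.35 in the same test.

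BAX, which forms the same kind of pore as BAK1, had a log2 fold change of -0.08 (95% interval -0.16 to 0.00; adjusted p 0.28 in edgeR's test). BBC3, which encodes the BH3-only protein PUMA, was at 0.25 (-0.06 to 0.56; adjusted p 0.41 in edgeR's test). The value for BBC3 was 0.09 without NC replicate 3 and 0.36 without NC replicate 2. BCL2L12, BCL2L13 and BNIP3L were the 3 further genes whose groups did not overlap, each higher in ORF-Flag, at 0.17, 0.15 and 0.15 with adjusted p of 0.16, 0.21 and 0.26 in edgeR's test. BCL2L13 and BNIP3L are known as receptors for the removal of mitochondria by autophagy. BNIP3, a relative of BNIP3L, was at 0.07 (adjusted p 0.34 in edgeR's test), BECN1, an autophagy gene with a BH3 segment, at 0.01 (0.91), and BCL2L14 at 0.38 on at most 18 counts a library (0.62).

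**Figure D4:**
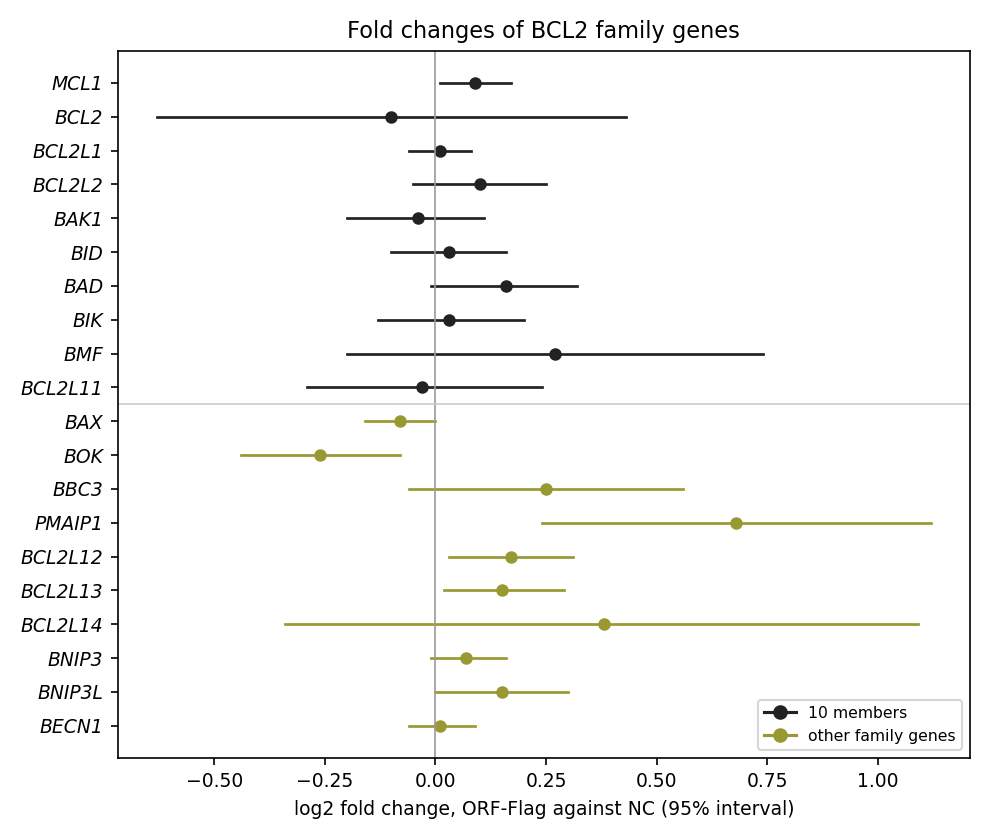
Log2 fold change of ORF-Flag against NC with its 95% interval for the 10 members (black) and the 10 further family genes tested (olive). Among the members the interval of MCL1 alone, 0.01 to 0.17, lies above 0, and the widest are those of BCL2 and BMF.

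Downstream of the mitochondria, the list of the apoptosome, caspases and released proteins had 16 genes tested. By edgeR 1 of them was called higher and 1 lower (adjusted p under 0.05), beside 4.45% of all genes tested, with a median log2 fold change of -0.03. ENDOG, a mitochondrial nuclease, was at 26.4, 25.3 and 22.2 CPM in NC and at 21.6, 19.6 and 20.4 CPM in ORF-Flag, with no overlap. Its log2 fold change was -0.25 (SE 0.07, adjusted p 0.044 in edgeR's test). This call was not firm. ENDOG lost its call in DESeq2 (0.071) and limma-voom (0.061), without NC replicates 1 and 2 (0.11 and 0.16) and without ORF-Flag replicates 1, 2 and 3 (0.068, 0.16 and 0.16), in a range of 0.0030 to 0.16.

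The inhibitor of apoptosis proteins, which bind caspases, gave 0 calls of 5 tested by edgeR and by each of the other tools, and 0 at an unadjusted p below 0.05 in edgeR. The smallest p of this list belonged to BIRC6, with a log2 fold change of 0.06 (95% interval -0.01 to 0.13), and to BIRC3, at -0.11 (-0.36 to 0.14). Their adjusted p were 0.38 and 0.71 in edgeR's test.

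Upstream of BID, the death receptor pathway had 11 genes tested. By edgeR 3 were called higher and 0 lower (adjusted p under 0.05), beside 2.47% and 1.98% of all genes tested. Like the other lists, this one was chosen with earlier results of these data known, so these counts are a description. At an unadjusted p below 0.05, 5 were higher and 1 lower, beside 18.5% of all genes in either direction. Limma-voom called 2 higher, limma-trend 3, and DESeq2 2 among the 10 with an adjusted p, and each called 0 lower. The median log2 fold change was 0.15. FAS, a receptor that recruits caspase 8, was at 50.3, 51.8 and 53.5 CPM in NC and at 65.6, 65.1 and 66.1 CPM in ORF-Flag. All 3 ORF-Flag libraries stood well above NC, and the log2 fold change was 0.34 (SE 0.04, 95% interval 0.25 to 0.43, adjusted p 3.5e-05 in edgeR's test). TNFRSF10B, a receptor for the ligand TRAIL, was at 106, 108 and 113 CPM in NC and at 127, 123 and 131 CPM in ORF-Flag, with no overlap. Its log2 fold change was 0.22 (SE 0.04, adjusted p 0.0012 in edgeR's test). FAS and TNFRSF10B stayed below an adjusted p of 0.05 in all 14 alternatives, with highest values of 0.00073 and 0.024.

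TNFRSF10A, the other TRAIL receptor with a death domain, was at 14.4, 16.3 and 16.7 CPM in NC and at 19.1, 19.8 and 18.2 CPM in ORF-Flag. Its log2 fold change was 0.26 (SE 0.07, adjusted p 0.045 in edgeR's test). This call was lost in DESeq2 (0.099), in limma-voom (0.059), without TMM factors (0.052) and without NC replicates 1 and 2 (0.13 and 0.098). It was also lost without ORF-Flag replicates 1, 2 and 3 (0.14, 0.16 and 0.088), in a range of 0.018 to 0.16. Beside these receptors, the pathway's link to the mitochondria, BID, had a log2 fold change of 0.03 with a 95% interval of -0.10 to 0.16.

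**Figure D5:**
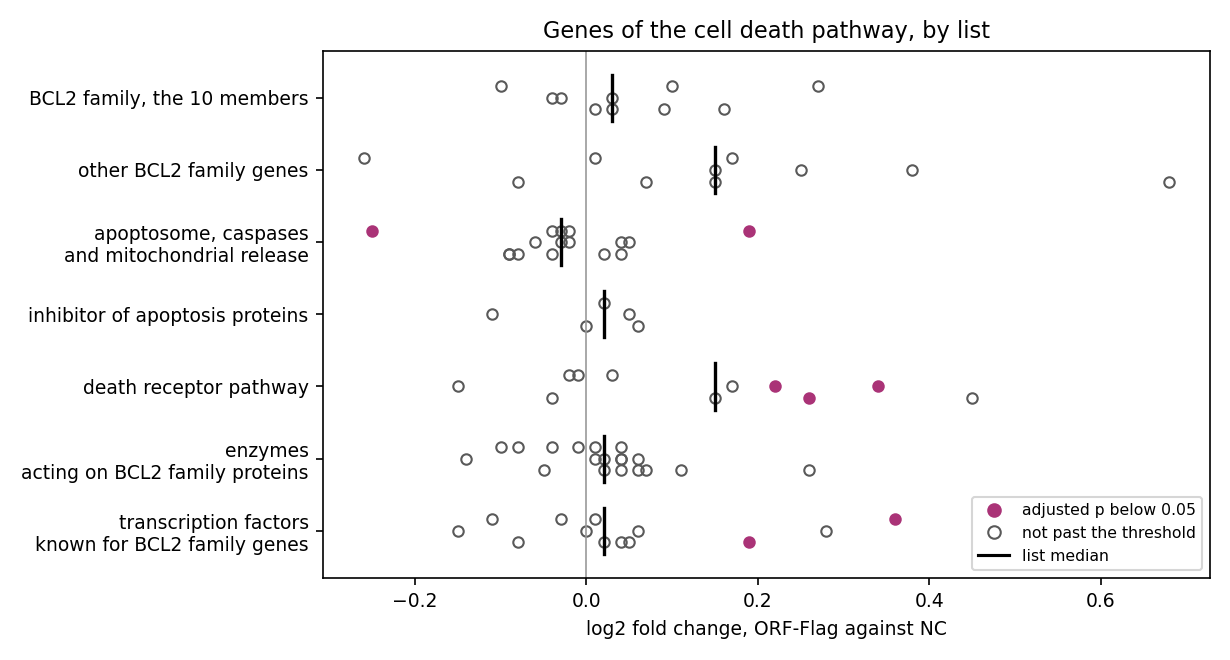
Log2 fold change of ORF-Flag against NC for each tested gene of the BCL2 family and of 5 further lists, with genes past an adjusted p of 0.05 filled and a bar at the median of each list. The 10 members have a median of 0.03 and none filled, and the death receptor pathway has 3 filled, all above 0.

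Of 19 enzymes and binding proteins that act on BCL2 family proteins, 0 passed an adjusted p of 0.05 in edgeR's test, limma-trend, limma-voom or, for the 18 with an adjusted p, DESeq2. By edgeR 2 were higher and 1 was lower at an unadjusted p below 0.05, beside 18.5% of all genes tested. AKT2, a survival kinase that can phosphorylate BAD, and YWHAZ, an adaptor that holds phosphorylated BAD in the cytosol, had the smallest p of the list. AKT2 had a log2 fold change of -0.14 (95% interval -0.23 to -0.05) and an adjusted p of 0.069, and YWHAZ one of 0.11 (0.04 to 0.17) and an adjusted p of 0.071, both in edgeR's test. Without NC replicate 3 these adjusted p were 0.016 for AKT2, in a range of 0.016 to 0.22, and 0.015 for YWHAZ, in a range of 0.015 to 0.27. With no filter on low counts AKT2 was at 0.046 and YWHAZ at 0.06. EdgeR then called 1 gene of the list higher and 1 lower, so the higher call was not YWHAZ. Without NC replicate 2 it called 1 higher and 0 lower, with YWHAZ at 0.19.

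Of 13 transcription factors known to act on BCL2 family genes, 2 were called higher and 0 lower by edgeR (adjusted p under 0.05), beside 4.45% of all genes tested called in either direction. Limma-trend and limma-voom also called 2 higher and 0 lower, as did DESeq2 among the 11 to which it gave an adjusted p. This list too was chosen with earlier results of these data known, so these counts are a description. At an unadjusted p below 0.05, edgeR took 2 that were higher and 1 that was lower, beside 18.5% of all genes. DDIT3, which encodes the stress factor CHOP, was at 17.6, 17.1 and 17.8 CPM in NC and at 20.4, 24.2 and 22.9 CPM in ORF-Flag. DDIT3 differed by 0.36 on the log2 scale (SE 0.07, adjusted p 0.0047 in edgeR's test), and its adjusted p was at most 0.037 over 14 alternatives. JUN was at 60.6, 58.8 and 57.6 CPM in NC and at 62.0, 67.7 and 72.1 CPM in ORF-Flag, with a log2 fold change of 0.19 (SE 0.05, adjusted p 0.030 in edgeR's test). Its call was lost without NC replicate 2 (0.10), ORF-Flag replicate 2 (0.095) or ORF-Flag replicate 3 (0.25), in a range of 0.0036 to 0.25. DDIT3 and JUN are known as activators of BCL2L11, whose log2 fold change was -0.03 with a 95% interval of -0.29 to 0.24.

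Among the hepatocyte markers, 2 of 10 were called higher by edgeR, beside 2.47% of all genes tested, APOA2 by 0.16 and FGB by 0.14 on the log2 scale (adjusted p 0.0092 and 0.023). Of the 10, 6 had a log2 fold change above 0 and 4 below, with a median of 0.04, and APOB was at -0.07 (95% interval -0.14 to 0.00, adjusted p 0.24 in edgeR's test). APOA2 lost its call without NC replicate 2 (0.065), ORF-Flag replicate 2 (0.051) or ORF-Flag replicate 3 (0.076), in a range of 5e-05 to 0.076. FGB lost its call without any library but NC replicate 3, with values from 0.062 to 0.12 in a range of 0.00047 to 0.12. The endothelial gene PECAM1 was at 4.36 ± 0.474 CPM in NC and 5.70 ± 0.380 CPM in ORF-Flag (SD, n = 3), with an adjusted p of 0.096 in edgeR's test. The part of these markers in the values of the members was not tested.

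The genes whose log2 CPM over the 6 libraries was most like that of MCL1, the member with the smallest p, were SLC1A7 (Pearson r = 0.982), CLDND2 (0.973) and OSBP2 (0.973). This is a description over 6 libraries in 2 groups, and 66 of 12385 genes had an r above 0.9. Their own adjusted p between the groups were 0.40, 0.31 and 0.58 in edgeR's test.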

How the data were processed

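RNA of 6 HepG2 samples was extracted with TRIzol and made into libraries with the VAHTS universal V10 kit. The authors deposited raw read counts per Ensembl gene, and the submitters' processing notes name cutadapt 1.11, HISAT2 2.1.0, featureCounts 1.6.0, edgeR and GRCh38, with the annotation release and the strand setting not given in the sources used here. Columns were matched to samples by name. No count was altered.

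Of 20422 genes, 20421 were matched to a symbol, 4055 had no count in any library, and 12386 passed filterByExpr. Groups were compared in edgeR 4.0.16 (R 4.3.3) with TMM factors (0.995 to 1.01), glmQLFit, glmQLFTest and Benjamini-Hochberg adjustment, after tests on simulated data. Standard errors and 95% intervals came from the same fit, whose common biological coefficient of variation was 0.0389. Totals of 17494668 to 30088457 counts put 3 counts at between 0.0997 and 0.171 CPM. Pairs of libraries within a group differed by a chi-square of 2.39 to 5.23 per degree of freedom, so none was taken for a repeated library.

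Length-scaled levels used exon lengths of GENCODE release 29 for the 20237 genes matched to it. BH3 windows were located by translating the reading frame of 1 transcript per gene.

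Alternatives were DESeq2 1.42.0, limma 3.58.1 (trend and voom), library sizes without TMM, DESeq2 size factors in edgeR, no filter, at least 10 counts in every library, a replicate block, each library left out, a fold change above 1.2 with unadjusted p, and the longest transcript as length.

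The members and lists were chosen with earlier results of these data known. The genes named were the 10 members, the further family genes, in each other list those past an adjusted p of 0.05 or else the 2 with the smallest p, the 3 genes most like the member with the smallest p, and the most abundant gene of each marker list. TTR, genes overlapping a member and marker genes at 0 were named beside these after their values were seen. A gene that this rule covers is not reported here.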

Additional observations from a re-analysis of the deposited data

How the results depend on the processing

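The count of members called was 0 under each alternative tried. Of 140 log2 fold changes of members under the alternatives, 129 kept their sign and their side of the threshold, 2 (BCL2 and BMF in DESeq2) had no adjusted p, 0 passed the threshold, and 9 changed sign, each when 1 library was left out. With each library left out in turn, BCL2 ran from -0.24 to 0.01, BCL2L1 from -0.01 to 0.03, BAK1 from -0.10 to 0.01, BID from -0.01 to 0.09, BIK from -0.02 to 0.08 and BCL2L11 from -0.07 to 0.06. Among other named genes, BECN1 ran from -0.01 to 0.04 and BIRC3 from -0.20 to 0.01. Fewer samples entered these fits, and no other cause was tested.

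Genes called numbered 551 in the main setting and between 199 and 1058 with a library left out. The tools gave 431 (DESeq2, 415 of them shared with the 551), 594 (limma-trend, 546 shared) and 527 (limma-voom, 514 shared), and no filter gave 824 of 16367 genes tested. The share of calls that were higher in ORF-Flag was 55.5% in the main setting, 52.7% without TMM factors and 54.7% with DESeq2 size factors. It was 49.8% with no filter, 47.4% without NC replicate 3 and 65.8% without ORF-Flag replicate 3, so which direction held more calls depended on the filter and on single libraries.

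Deviations from the group mean correlated at 0.07, 0.03 and 0.04 between samples with the same replicate number. Between samples with different numbers the correlations lay between -0.08 and 0.03. None of the same-number values was below these, but all were small, and whether the numbers pair the libraries was not tested. The main fit did not pair them. A fit with the replicate block called 731 genes and 0 members, with MCL1 at an adjusted p of 0.14, PMAIP1 at 0.045, AKT2 at 0.049 and YWHAZ at 0.032. It changed no other call among the members and the named genes of the lists. SLC1A7, CLDND2, OSBP2 and the genes overlapping a member were not followed in it. BCL2, with 18 to 38 counts a library, and BMF, with 23 to 70, had the fewest counts and the widest intervals among the members.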
